A study of Mus musculus with 4 samples.

Results

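Cells with high RNA of the chemokines Ccl2 and Ccl7 were examined in the inflamed mouse joint. They were chosen by their own counts. In the libraries of days 1, 2 and 5 after arthritis was induced, cell barcodes were kept if they held 500 genes or more and if less than 10% of their unique molecular identifiers (UMIs, each standing for 1 captured transcript) were mitochondrial. A member had at least 8 UMIs of Ccl2, Ccl7 and Cxcl1 together, at most 1 UMI of Sparc, a gene of lining macrophages, and at most 1 of Plac8, a gene of monocytes. There were 474 members among 6695 passing barcodes that met the Sparc and Plac8 limits, and among 10599 passing barcodes of the 3 libraries. The whole series holds 18237 barcodes. The other 6221 barcodes within those limits, with a sum under 8, are the comparison barcodes throughout.

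The cells were CD45+CD11b+Ly6G- cells sorted from the synovium, or joint lining tissue, of hind paws. All mice carried Cx3cr1creER:tdTomato, in which the Cx3cr1 promoter drives a tamoxifen-dependent Cre recombinase that switches on a red fluorescent reporter. All had tamoxifen at 4 mg/ml on 2 occasions within 48 h, and, 4 weeks later, the mice of days 1, 2 and 5 had K/BxN serum, which carries autoantibodies that cause arthritis. Each day is 1 library, made with 17400 cells loaded. The number of mice per library, their age and their sex are not given in the labels. No difference between days therefore has a replicate check or a test.

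Ccl2 and Ccl7 are ligands of the receptor CCR2, which draws monocytes out of the bone marrow and into inflamed tissue. Cxcl1 is a ligand of CXCR2, the main receptor by which neutrophils are attracted. Macrophages transcribe these chemokines together with immediate early genes and targets of the transcription factor NF-kB when Toll-like or cytokine receptors are engaged. Immediate early genes also respond to tissue digestion and sorting. Mt2 encodes a metallothionein, a small protein that binds zinc and copper, and Egr1 an immediate early transcription factor. These 2 genes came with the working name of the cells and, like the genes of the rule, are described here with no test.

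In the mm10 annotation Ccl2 (chr11:82035571-82037453) and Ccl7 (chr11:82045712-82047525) lie side by side on the plus strand. Ccl12 (chr11:82101845-82103400) and Ccl8 (chr11:82115185-82116799) lie downstream of them, with Ccl11 between. Cxcl1 (chr5:90891241-90893115) and Cxcl2 (chr5:90903871-90905938) are neighbours on chromosome 5. For 4 genes that led the comparison or marked the cells, the 250 bases before the RefSeq start are printed. They are from the RefSeq table, build GRCm38.p6, plus strand, at chr5:90890995-90891244 (Cxcl1), chr5:90903649-90903898 (Cxcl2), chr11:82101595-82101844 (Ccl12) and chr8:94172368-94172617 (Mt2). The RefSeq starts of Cxcl1, Cxcl2 and Mt2 differ from those of the annotation that gave the gene positions, so the Cxcl1 and Cxcl2 windows reach past the starts given above. Of 14 genes looked up, 10 had an entry. Ccl2, Ccl7, Ccl4 and Ccl11 are named only. Capitals mark GGG and TTCC with any 3 bases between them, a pattern bound by NF-kB proteins, in Cxcl1, Cxcl2 and Ccl12. In Mt2 they mark TGCNCNC, a looser form of the core of the metal response element, which has A or G at the first N. Both patterns were searched on both strands, with overlapping matches joined.
Cxcl1: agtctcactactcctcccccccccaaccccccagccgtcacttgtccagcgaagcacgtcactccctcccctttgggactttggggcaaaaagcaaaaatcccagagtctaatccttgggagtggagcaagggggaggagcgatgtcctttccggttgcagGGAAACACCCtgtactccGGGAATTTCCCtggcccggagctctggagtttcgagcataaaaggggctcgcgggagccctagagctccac
Cxcl2: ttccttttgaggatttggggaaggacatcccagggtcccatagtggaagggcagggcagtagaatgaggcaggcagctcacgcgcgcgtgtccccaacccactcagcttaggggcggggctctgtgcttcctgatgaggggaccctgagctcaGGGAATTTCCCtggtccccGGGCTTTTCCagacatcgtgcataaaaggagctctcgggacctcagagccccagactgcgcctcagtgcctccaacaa
Ccl12: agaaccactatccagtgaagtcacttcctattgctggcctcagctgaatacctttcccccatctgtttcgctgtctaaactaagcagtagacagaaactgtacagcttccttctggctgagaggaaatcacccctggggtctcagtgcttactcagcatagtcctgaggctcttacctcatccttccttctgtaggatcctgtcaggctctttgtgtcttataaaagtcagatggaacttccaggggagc
Mt2: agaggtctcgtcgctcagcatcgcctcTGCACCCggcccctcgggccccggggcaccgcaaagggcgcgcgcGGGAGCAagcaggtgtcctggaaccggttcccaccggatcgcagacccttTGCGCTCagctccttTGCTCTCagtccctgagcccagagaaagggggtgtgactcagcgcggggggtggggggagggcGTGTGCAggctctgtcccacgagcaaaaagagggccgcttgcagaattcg
Cxcl1 and Cxcl2 each held 3 matches to the first pattern, 2 of them overlapping on opposite strands, and Ccl12 held 0. The outermost matches began at positions -89 and -70 in Cxcl1 and at -97 and -78 in Cxcl2, counted back from the RefSeq start, with the last printed base at -1. Of 32851 promoters of this length, 4.65% held a match. Mt2 held 5 matches to the second, looser pattern, not all of them with A or G at the first N, and 44.4% of all promoters held a match. A match is a description of letters and not of binding.

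The 3 libraries held 2756 to 4674 barcodes and 12218230 to 18426363 UMIs each. Members had medians of 3569, 3800 and 3968 UMIs at days 1, 2 and 5, against 3160, 3579 and 3616 in comparison barcodes, and medians of 1445, 1484 and 1471 genes against 1339, 1451 and 1435. Mitochondrial UMIs made up a median of 2.64%, 3.0% and 2.74% of a member's UMIs and 2.62%, 2.60% and 2.77% of a comparison barcode's. Pairs of the 4 libraries of the series shared 13 to 53 barcode sequences, and no shared barcode was a member in both libraries of a pair. Members came to a total of 740484, 742286 and 528845 UMIs at days 1, 2 and 5.

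Members were most frequent at day 2. They numbered 174 of 3200 barcodes within the Sparc and Plac8 limits at day 1, or 5.44% (95% Clopper-Pearson interval 4.68 to 6.28%). At day 2 they were 181 of 1623, or 11.2% (9.66 to 12.8%), and at day 5 119 of 1872, or 6.36% (5.29 to 7.56%). The intervals cover counting error only, and the interval of day 2 did not overlap those of the other days. Of all passing barcodes the shares were 3.75%, 6.65% and 3.68%. With each barcode thinned to 2000 UMIs and a sum of at least 4, which left out 587, 259 and 63 shallower barcodes, the shares were 6.89%, 12.2% and 6.97%, in which day 2 was again the highest. These few cells held 51.0%, 56.9% and 40.9% of the Ccl2, Ccl7 and Cxcl1 UMIs of all passing barcodes at days 1, 2 and 5. A large share follows in part from the rule, which chose them by these UMIs. No UMI of the 3 genes was found in 64.6%, 55.2% and 68.4% of the barcodes within the limits.

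The sum of 8 fell within a continuous range. At the value just outside, a sum of 7, there were 23, 26 and 8 barcodes at days 1, 2 and 5, with median UMI counts of 4, 3.5 and 3 for Ccl2 and 3, 3 and 2.5 for Ccl7. At the value just inside, a sum of 8, there were 21, 17 and 17 barcodes, with medians of 4, 3 and 6 for Ccl2 and 4, 4 and 2 for Ccl7. Cxcl1 had a median of 0 on both sides on each day. Members ranged from a sum of 8 to 135, 173 and 139, with medians of 13, 15 and 14.

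The high sums were sums of Ccl2 and Ccl7, and few members carried Cxcl1. Ccl2 had at least 1 UMI in 97.1%, 94.5% and 93.3% of members at days 1, 2 and 5, with medians of 7, 8 and 8 UMIs and highest values of 51, 55 and 69. Ccl7 was found in 92.0%, 84.0% and 74.8%, with medians of 7, 7 and 5 UMIs and highest values of 100, 102 and 93. Cxcl1 was found in 23 of 174 members at day 1 (13.2%, interval 8.57 to 19.2%), 30 of 181 at day 2 (16.6%, 11.5 to 22.8%) and 26 of 119 at day 5 (21.8%, 14.8 to 30.4%), with a median of 0 on each day. Comparison barcodes, whose sum the rule holds under 8, had a Cxcl1 UMI in 1.32%, 3.40% and 2.57%. Cxcl1 made up 5.40%, 4.78% and 11% of the members' summed UMIs and was the most abundant of the 3 genes in 7, 12 and 13 members. All 3 chemokines were detected in 17, 18 and 12 members. Without Cxcl1, 167, 169 and 102 members reached 8 UMIs from Ccl2 and Ccl7 alone. The name "Cxcl1-high" did not hold for most members, which are called Ccl2/Ccl7-high cells here.

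Selection on a sum constrains how its parts can vary together, so relations among the 3 chemokines within members are descriptions of the chosen set. Spearman's rho over members was 0.046, 0.21 and 0.21 between Ccl2 and Ccl7 at days 1, 2 and 5. Between Ccl2 and Cxcl1 it was -0.020, -0.10 and -0.43. At day 5, 7 members had Cxcl1 as their sole chemokine of the 3, against 1 at day 1 and 3 at day 2.

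**Figure D1:**
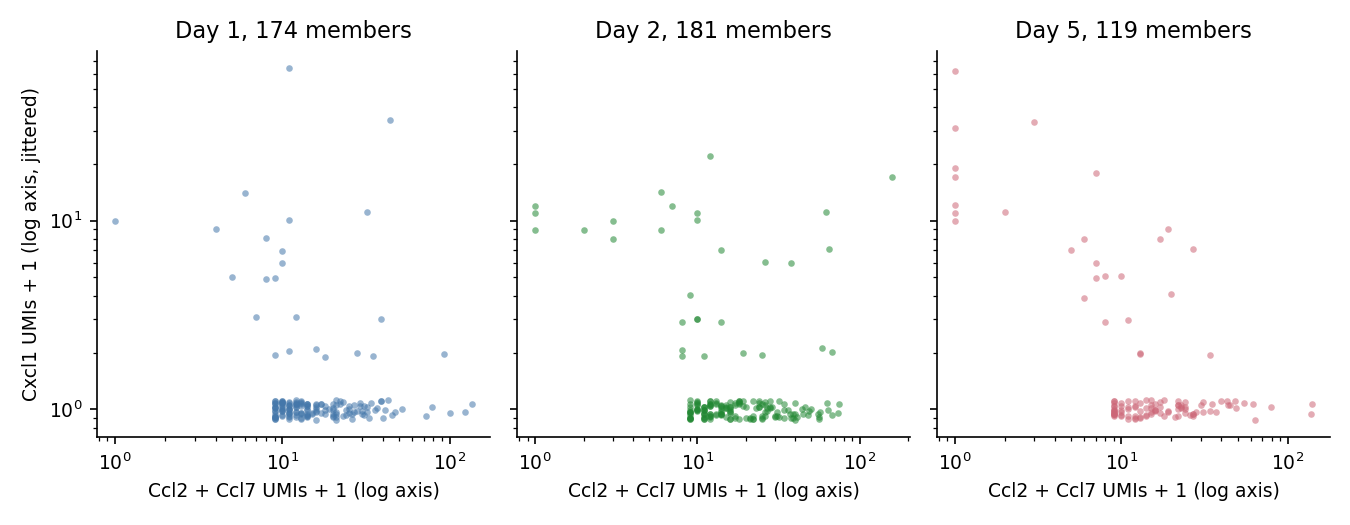
Each point is a member, with its Ccl2 and Ccl7 UMIs together on the horizontal axis and its Cxcl1 UMIs on the vertical axis, both plus 1 and on log axes, the vertical values jittered. Most members lie on the bottom row, at 0 Cxcl1 UMIs, and 7 members of day 5 lie at the far left, with Cxcl1 alone.

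In counts per 1e6 summed UMIs (CPM), Ccl2 stood at 2087, 2683 and 2378 in members at days 1, 2 and 5, against 121, 119 and 82.3 in comparison barcodes. Ccl7 stood at 2359, 2443 and 1879 CPM against 75.5, 78.8 and 43.6. Cxcl1 stood at 254, 257 and 526 CPM against 7.67, 15.1 and 11.7, and 1 member held 63 of the 188 Cxcl1 UMIs of day 1. These gaps follow from the rule. Mt2 stood at 758, 891 and 363 CPM in members against 214, 316 and 137, and Egr1 at 458, 680 and 384 CPM against 118, 180 and 125. Both marker genes were higher in members on each day, Mt2 with a UMI in 58.0%, 72.9% and 38.7% of members and Egr1 in 60.9%, 71.3% and 45.4%.

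The macrophage part of the name was checked against 9 macrophage markers, all of which were detected in members of every day. Their summed level was 18780, 20952 and 10915 CPM in members at days 1, 2 and 5, and 19739, 21156 and 10704 CPM in comparison barcodes. C1qa, which encodes a chain of complement C1q that tissue macrophages make in quantity, stood at 5649, 6263 and 3055 CPM in members against 5996, 6576 and 3147. It was present in all 174 members of day 1 and in 179 of 181 at day 2. At day 5, 34 of 119 members (28.6%, interval 20.7 to 37.6%) had no C1qa UMI, against 24% of the comparison barcodes of that day. Csf1r, the receptor for the macrophage growth factor CSF1, was found in 92.0%, 88.4% and 68.9% of members. In comparison barcodes the Csf1r shares were 88.2%, 89.5% and 81.9%. At day 5 members thus held Csf1r less often, and the intervals of members and comparison barcodes did not overlap. Nearly all members of days 1 and 2 thus carried macrophage markers, and fewer did at day 5.

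Markers of other cell types were checked as well. T or NK cell and mast cell markers were not among the genes listed in all 3 libraries and have no value. Neutrophil markers, 3 of 8 listed, summed to 10.8, 6.74 and 58.7 CPM in members and 6.82, 8.07 and 24.2 CPM in comparison barcodes, with 1, 1 and 0 of the 3 at 0 in members. Fibroblast markers, 6 of 8 listed, summed to 40.5, 39.1 and 11.4 CPM against 28.8, 42.1 and 34.2, with 1, 1 and 4 at 0. Endothelial markers, 4 of 6 listed, summed to 2.70, 12.1 and 3.78 CPM against 6.25, 7.89 and 6.59, with 3, 2 and 2 at 0. The single listed B cell marker stood at 2.70, 5.39 and 0 CPM against 2.94, 4.56 and 3.48. Monocyte markers, all 8 listed, summed to 205, 131 and 912 CPM against 221, 201 and 525, with 2, 2 and 0 at 0, although the rule holds Plac8 down. The neutrophil and monocyte sums of day 5 were thus higher in members than in comparison barcodes, and their part in the results of that day was not tested.

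The main comparison asked how these cells differed from the rest of the same libraries in genes the rule did not use. UMIs were summed over members and over comparison barcodes of each library, and edgeR's quasi-likelihood test was fitted with the library as a block over the 3 days. Of 10029 genes tested, 176 were higher (1.75%) and 55 lower (0.548%) in members, together 231 (2.3%), at an adjusted p under 0.05. The 3 chemokines of the rule, Mt2 and Egr1 are 5 of the 176, which leaves 171. Of these 171, 91 were higher by at least 2-fold and 36 of the 55 were lower by at least 2-fold. The median log2 fold change over all genes was -0.0073. The 2 sums of a library come from the same animals, so a p-value concerns the ratio within these 3 libraries. It rests on 2 residual degrees of freedom of the gene and on 23.65 prior degrees of freedom borrowed from all genes. A small p-value therefore does not by itself mean that a gene's ratio was alike in the 3 libraries.

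**Figure D2:**
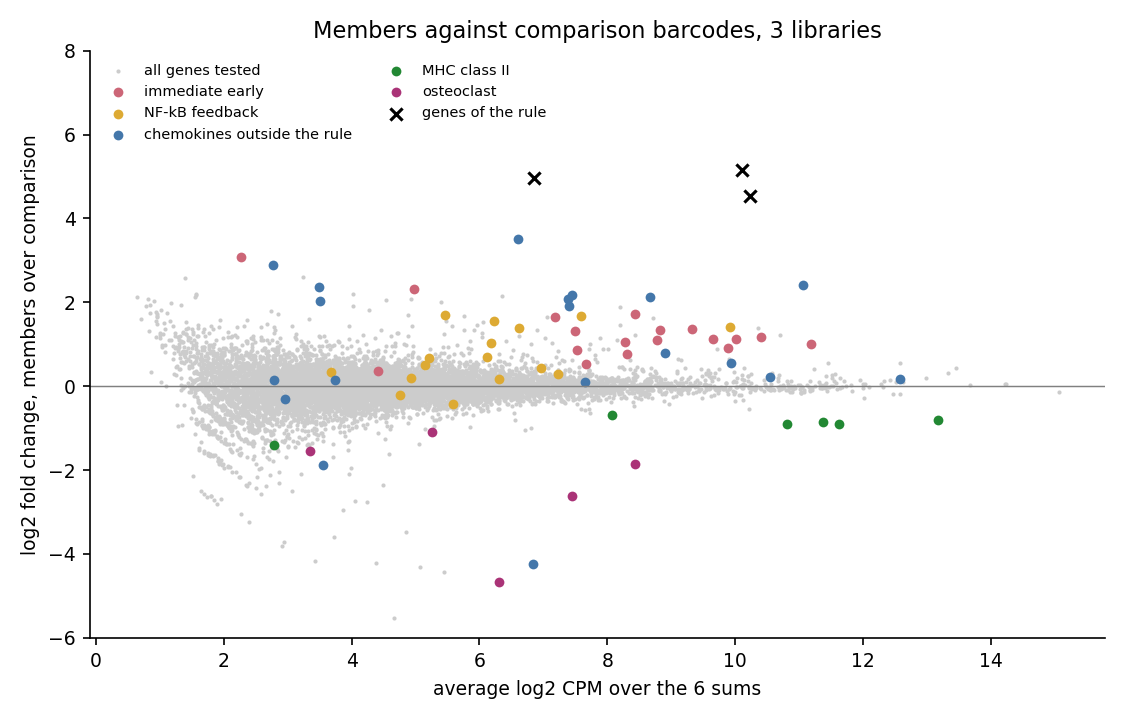
Each point is 1 of the 10029 genes tested, with its average log2 CPM over the 6 sums on the horizontal axis and its log2 fold change, members over comparison barcodes, on the vertical axis; colours mark gene groups. Immediate early genes and most chemokines lie above 0, and the MHC class II and osteoclast genes lie below 0.

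Other ligands that attract monocytes were high in the same cells. All 5 of the genes of this group that could be tested, Ccl3, Ccl4, Ccl5, Ccl8 and Ccl12, were higher in members, with a median log2 fold change of 2.14. Over all genes tested, 1.75% were higher. Ccl12, a CCR2 ligand of the mouse, stood at 180, 395 and 218 CPM in members at days 1, 2 and 5, against 20.6, 27.5 and 20.8 in comparison barcodes. Its lowest member value was above its highest comparison value, and it had the largest fold change of the higher genes that met the naming rule (log2 3.52 ± 0.15 SE, adjusted p = 9.3e-16). A Ccl12 UMI was found in 21.3%, 29.8% and 22.7% of members and in 3.57%, 6.03% and 4.16% of comparison barcodes, so most members held none at this depth.

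Ccl8, a ligand of several CC receptors, stood at 1023, 493 and 658 CPM in members against 211, 151 and 138, with no overlap between the groups (log2 fold change 2.14 ± 0.13, adjusted p = 2.0e-12). A single member held 87 of the 348 Ccl8 UMIs of day 5. Ccl3 and Ccl4, neighbouring CC chemokine genes, stood at 304, 388 and 274 CPM (Ccl3) and 366, 441 and 210 CPM (Ccl4) in members. In comparison barcodes they stood at 63.8, 92.8 and 79.8 CPM (Ccl3) and 61.7, 92.8 and 79.3 CPM (Ccl4). Their log2 fold changes were 2.09 ± 0.12 (adjusted p = 2.0e-12) and 2.16 ± 0.15 (adjusted p = 8.6e-11). Ccl5 rests on very few cells, since 62 of its 63 UMIs in members of day 2 were in 1 member and none was found at day 1.

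A list of neutrophil attractants and related chemokines gave mixed results. Of 4 genes tested beside Cxcl1, Cxcl2 and Cxcl3 were higher in members and Pf4 and Ppbp did not pass the test. The share higher over all genes tested was 1.75%. Cxcl2, a CXCR2 ligand, stood at 1729, 2607 and 6406 CPM in members against 268, 639 and 1242, a log2 fold change of 2.41 ± 0.13 (adjusted p = 2.9e-13). On each day members were above the comparison barcodes of that day, and the comparison level of day 5 was under all 3 member levels. A Cxcl2 UMI was found in 43.7%, 59.7% and 67.2% of members, and in 13.8%, 25.7% and 40.6% of comparison barcodes. Cxcl3, another CXCR2 ligand, stood at 0, 4.04 and 131 CPM in members against 1.14, 3.86 and 16.9. Its call rests on day 5, and without that library its log2 fold change was -0.27 (adjusted p = 0.97) against 2.38 with it. Pf4, platelet factor 4, which synovial macrophages also hold, stood at 8288, 7176 and 3600 CPM against 7751, 6825 and 3124 (log2 0.17 ± 0.11, adjusted p = 0.66).

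Among 10 other chemokines tested, 4 were higher in members and 2 lower, beside 1.75% and 0.548% over all genes tested. Cxcl10, an interferon-inducible attractant of T cells, stood at 13.5, 10.8 and 64.3 CPM against 2.08, 1.75 and 8.08 (log2 2.89 ± 0.33, adjusted p = 6.1e-07), but it was found in 5, 4 and 4 members only. Cxcl13, which attracts B cells, stood at 408, 496 and 43.5 CPM against 108, 91.0 and 35.2 (log2 1.91 ± 0.19, adjusted p = 1.1e-07, and 0.23 with DESeq2). At day 2, 1 member held 213 of its 368 UMIs, and at day 5 1 member held 17 of 23. Without the top member of each day the Cxcl13 ratio to comparison barcodes was 2.96, 2.31 and 0.33, so members were not above them at day 5. Ccl17, a CCR4 ligand made by dendritic cells, was nearly absent from members, at 5.40, 8.09 and 9.46 CPM against 81.6, 106 and 303 (log2 -4.24 ± 0.25, adjusted p = 2.0e-12). Ccl22, the other CCR4 ligand, also fell, at 0, 8.09 and 1.89 CPM against 5.59, 18.8 and 15.4 (log2 -1.87 ± 0.49, adjusted p = 0.037). Among receptors and decoys, 1 of 6 genes tested was higher. It was Ccrl2, which encodes a non-signalling receptor that holds chemerin at the cell surface, at 74.3, 71.4 and 246 CPM against 24.5, 28.4 and 85.8 (log2 1.54 ± 0.14, adjusted p = 1.8e-08).

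Inflammatory cytokine genes were higher as well, 6 of 10 tested, none lower, at a median log2 fold change of 1.59. Over all genes tested, 1.75% were higher and 0.548% lower. Tnf, the cytokine that leads much of joint inflammation, stood at 170, 197 and 174 CPM in members against 35.8, 51.6 and 39.4. The 2 groups did not overlap (log2 2.15 ± 0.13, adjusted p = 3.7e-12). Il1b, which encodes interleukin-1 beta, stood at 105, 166 and 1699 CPM against 61.4, 80.9 and 742 (log2 1.09 ± 0.13, adjusted p = 1.4e-06), so each member level was above the comparison level of its own day while both groups were far higher at day 5. Il1rn, the gene of the natural interleukin-1 receptor antagonist, stood at 29.7, 22.9 and 274 CPM against 7.67, 8.42 and 64.3 (log2 2.01 ± 0.18, adjusted p = 1.1e-08). Osm and Tnfsf9 were also higher (log2 1.24 ± 0.20 and 1.46 ± 0.20), with Tnfsf9 at 0.94 without day 2. Il10, the gene of an anti-inflammatory cytokine, was called at 0, 4.04 and 26.5 CPM against 0.852, 0.702 and 3.11, a call on few UMIs. Nlrp3, the sensor of the inflammasome that activates interleukin-1 beta, stood at 13.5, 45.8 and 88.9 CPM against 7.39, 10.4 and 24.4 (log2 1.82 ± 0.23, adjusted p = 3.8e-06).

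**Figure D3:**
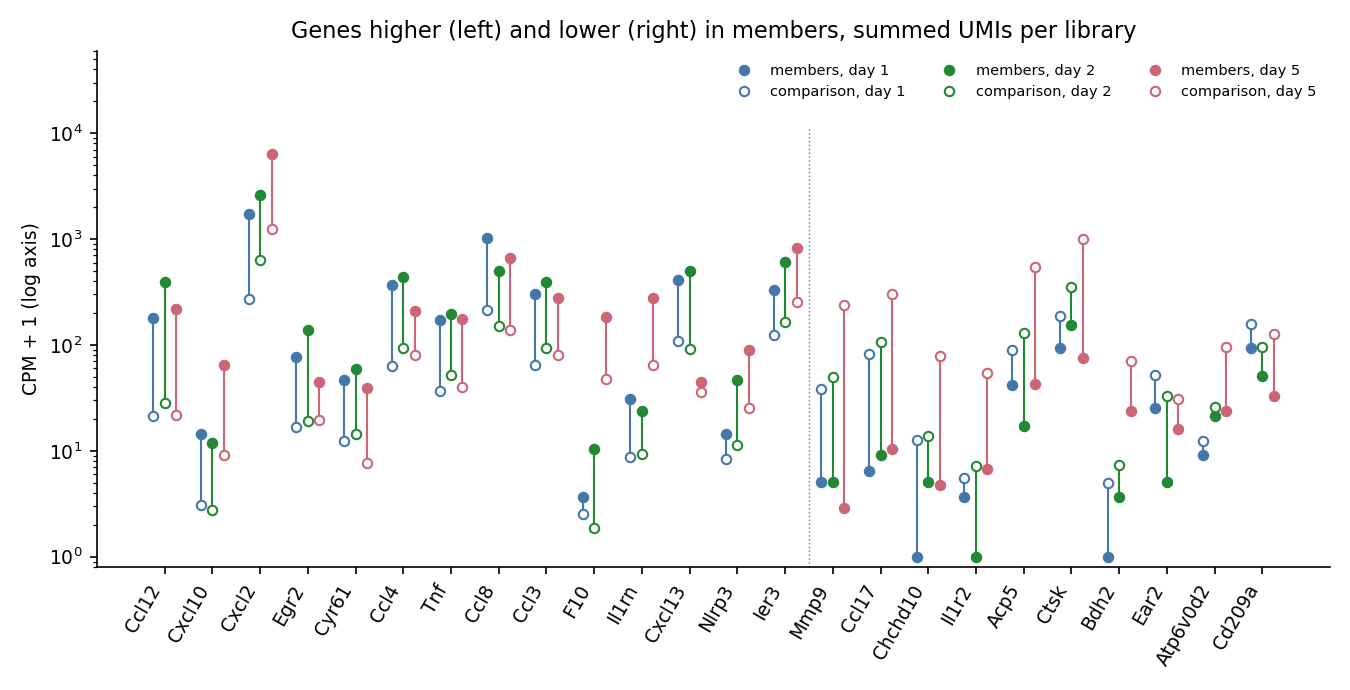
Summed CPM plus 1, on a log axis, of the named genes in members (filled) and comparison barcodes (open) of each day, joined within a day, with genes higher in members to the left of the dotted line and lower genes to the right. Ccl12 and Tnf lie apart in every library, whereas Mmp9 and Acp5 are farthest apart at day 5.

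Immediate early genes formed the group with the most calls. Of 18 tested, 17 were higher in members and none lower, at a median log2 fold change of 1.13, beside 1.75% higher over all genes tested. The summed level was 11173, 17410 and 12417 CPM in members against 5684, 7342 and 6390 in comparison barcodes. Fos, a partner in the factor AP-1, stood at 2482, 4052 and 2793 CPM against 1293, 1823 and 1626 (log2 1.01 ± 0.12, adjusted p = 9.1e-07). Egr2, a relative of Egr1, stood at 75.7, 139 and 43.5 CPM against 15.8, 18.1 and 18.5 (log2 2.32 ± 0.22, adjusted p = 2.1e-08). Ier3, an NF-kB target that protects from cell death, stood at 327, 605 and 814 CPM against 122, 165 and 254 (log2 1.71 ± 0.12, adjusted p = 1.1e-10). Jun, Junb, Jund, Fosb, Egr3, Ier2, Atf3, Nr4a1, Dusp1, Klf2, Klf4, Klf6, Btg2 and Zfp36 made up the rest, at log2 1.65 ± 0.14 for the nuclear receptor Nr4a1 and 1.35 ± 0.12 for Zfp36, which encodes a protein that destabilises cytokine mRNA. Myc did not pass (log2 0.37 ± 0.24, adjusted p = 0.67). Cyr61, which encodes a matrix protein and behaves as an immediate early gene, stood at 45.9, 57.9 and 37.8 CPM against 11.3, 13.5 and 6.71 (log2 2.21 ± 0.22, adjusted p = 5.4e-08), with 20 of its 43 UMIs of day 2 in 1 member. Handling of the tissue was the same for both groups of a library, and the part of handling in these levels was not tested.

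In a list of NF-kB feedback genes, other targets and subunits, 8 of 16 tested were higher and none lower, with a median log2 fold change of 0.59. The shares over all genes tested were 1.75% higher and 0.548% lower. The 8 were Nfkbia, Nfkbiz, Nfkbid, Tnfaip3, Tnfaip2, Icam1, Rel and Bcl2a1d, of which Icam1 encodes an adhesion molecule, Rel an NF-kB subunit and Bcl2a1d a survival protein. Nfkbia, the inhibitor that holds NF-kB in the cytoplasm, stood at 835, 1399 and 1935 CPM in members against 287, 452 and 1022 (log2 1.41 ± 0.13, adjusted p = 1.8e-08). Nfkbiz, a nuclear cofactor of NF-kB, stood at 238, 431 and 339 CPM against 80.3, 115 and 128, with no overlap between the groups (log2 1.68 ± 0.12, adjusted p = 2.3e-10). Tnfaip3, the ubiquitin-editing enzyme A20, stood at 75.7, 174 and 172 CPM against 34.1, 42.5 and 73.9 (log2 1.54 ± 0.16, adjusted p = 1.3e-07). Upstream of them, 3 of 11 Toll-like receptor and adaptor genes were higher. These were Cd14, the co-receptor for lipopolysaccharide (log2 0.90 ± 0.14, adjusted p = 7.5e-05), Tlr2 (0.85 ± 0.14, adjusted p = 0.00025) and Tlr13 (0.84 ± 0.22, adjusted p = 0.040), whose call held in 7 of 17 alternatives and was lost with DESeq2, without day 2 and without day 5. Of 5 Fc gamma receptor genes, which bind the antibody of immune complexes, Fcgr1 alone passed, at 99.97, 106 and 235 CPM against 69.4, 82.8 and 106 (log2 0.76 ± 0.15, adjusted p = 0.0019, and 0.49 without day 5).

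Stress genes did not move as a block, and 2.3% of all genes tested were called in either direction. Of 7 metallothionein and zinc genes tested without Mt2, Mt1 was higher, at 2310, 3057 and 1608 CPM against 1037, 1182 and 829 (log2 1.21 ± 0.12, adjusted p = 5.2e-08), while the zinc transporters Slc30a1, Slc39a1 and Slc39a14 did not pass (log2 0.12, 0.28 and 0.29). Mt1 and Mt2 are neighbours on chromosome 8. None of 10 heat shock chaperones passed with edgeR, with Hspa1a at 515, 1116 and 450 CPM against 462, 660 and 394 (log2 0.43 ± 0.13, adjusted p = 0.084). Hspa1a and Hspa1b are near-identical copies whose reads may be split between them. Of 9 antioxidant genes of the Nrf2 type, Hmox1 and Slc7a11 were higher. Slc7a11 stood at 1.35, 5.39 and 210 CPM in members against 1.42, 2.63 and 61.4 (log2 1.70 ± 0.23, adjusted p = 1.3e-05). Its call rests on day 5, with 1, 4 and 111 UMIs in members, and it was not tested without that library. Hmox1, haem oxygenase 1, stood at 261, 495 and 490 CPM against 231, 218 and 147 (log2 1.09 ± 0.18, adjusted p = 0.00015, and 0.51 with DESeq2). None of 10 interferon response genes passed with edgeR, at a median log2 fold change of 0.33, and none of 14 glycolysis and hypoxia genes, at 0.20. With no adjustment, 2 chaperones, 3 interferon genes and 4 glycolysis genes had an edgeR p under 0.05, and DESeq2 called 0 in each group. None of 8 efferocytosis genes passed either, with 2 at an unadjusted p under 0.05 and 0 called by DESeq2. Single genes passed among 7 glucocorticoid response genes (Errfi1) and 6 alternative activation genes (Chil3), and pairs among 10 complement genes (C4b and C5ar1) and 8 growth factors (Areg and Gdf15). The calls of Errfi1, Chil3, C4b and Areg were each lost when a library was left out.

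Genes of pattern recognition and proteolysis were partly higher, beside shares over all genes tested of 1.75% higher and 0.548% lower. Of 10 lectin genes, Cd209f, Cd209g, Clec4d, Clec4e and Clec4n were higher and Cd209a lower, and Cd209g lost its call without day 1. Clec4e, the receptor Mincle for mycobacterial and damaged-cell lipids, stood at 62.1, 70.1 and 617 CPM against 15.7, 27.5 and 208 (log2 1.66 ± 0.14, adjusted p = 5.6e-09). Plaur, the urokinase receptor, stood at 98.6, 97.0 and 225 CPM against 58.0, 51.6 and 86.8 (log2 1.09 ± 0.14, adjusted p = 8.0e-06), and its ligand gene Plau was higher too (log2 1.60 ± 0.30, adjusted p = 0.0015). F10, coagulation factor X, stood at 2.70, 9.43 and 182 CPM against 1.52, 0.877 and 47.0 (log2 2.05 ± 0.25, adjusted p = 2.2e-06), on 2, 7 and 96 UMIs in members. Cell cycle genes showed no common direction, with Mki67 higher and Rrm2 lower of 15 tested. Rrm2 had 4, 1 and 0 UMIs in members, and its log2 fold change of -2.73 ± 0.52 ranged from -9.22 to -1.64 over 17 alternatives. Its call was lost with DESeq2, which called 0 of the 15, and with a sum of at least 5. The Mki67 call (log2 1.00 ± 0.21) was lost without day 1 and became -0.11 when the sum was counted per 10000 UMIs.

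Lower genes were led by those of osteoclasts and of antigen-presenting cells. Of 5 osteoclast genes tested, 4 fell, at a median log2 fold change of -1.86, beside 0.548% lower over all genes tested. The summed level of the osteoclast genes was 149, 193 and 146 CPM in members against 328, 557 and 1914 in comparison barcodes. Mmp9, a gelatinase of osteoclasts, stood at 4.05, 4.04 and 1.89 CPM against 37.2, 49.3 and 240 (log2 -4.66 ± 0.35, adjusted p = 4.4e-10, and -3.36 without day 5). Acp5, tartrate-resistant acid phosphatase, stood at 40.5, 16.2 and 41.6 CPM against 88.8, 129 and 546. Its log2 fold change of -2.62 ± 0.26 (adjusted p = 7.9e-08) was -3.40 without day 1, -1.87 without day 5 and -0.73 (adjusted p = 0.17) without the 5% of barcodes with most UMIs. Ctsk, the collagen-cutting cathepsin K, stood at 91.9, 152 and 73.8 CPM against 188, 349 and 1007 (log2 -1.86 ± 0.27, adjusted p = 3.1e-05, -1.07 without day 5 and adjusted p = 0.54 with DESeq2). Atp6v0d2, a proton pump subunit, was called at log2 -1.10 and became 0.17 without the barcodes of most UMIs and -0.30 (adjusted p = 0.85) without day 5. Without the barcodes of most UMIs, Mmp9 stood at log2 -1.97 and Ctsk at -0.94, both still past the threshold. Comparison levels of Mmp9, Acp5 and Ctsk were highest at day 5, whereas member levels of that day lay at or below 73.8 CPM.

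MHC class II genes, which present peptides to T cells, fell in 5 of 6 tested, at a median log2 fold change of -0.88. The share lower over all genes tested was 0.548%. H2-Ab1 stood at 2212, 2413 and 1811 CPM in members against 4306, 3490 and 4722 (log2 -0.91 ± 0.13, adjusted p = 4.6e-05). Cd74, the invariant chain, stood at 7063, 7411 and 5477 CPM against 12781, 10842 and 12099 (log2 -0.80 ± 0.12, adjusted p = 9.9e-05; -0.79 and adjusted p = 0.086 without day 1). Member and comparison levels of both genes did not overlap. An H2-Ab1 UMI was nevertheless found in 51.1%, 59.1% and 61.3% of members, against 47.2%, 50.4% and 63.9% of comparison barcodes, with highest values of 120, 187 and 85 UMIs against 371, 367 and 451. Cd209a, a lectin of monocyte-derived dendritic cells, stood at 91.9, 49.9 and 32.2 CPM against 155, 93.8 and 127 (log2 -1.04 ± 0.17, adjusted p = 0.00027). Of 7 dendritic markers 3 were listed, with 1, 1 and 2 at 0 in members. The others named by rule were Chchd10, Il1r2, Bdh2 and Ear2, at log2 -3.48, -2.77, -1.62 and -1.37. Chchd10, a mitochondrial protein gene, was -4.58 without day 2 and -2.53 without day 5. Il1r2, the interleukin-1 decoy receptor, was -3.39 without day 1 and -1.90 (adjusted p = 0.39) without day 5. Bdh2 had adjusted p = 0.41 without day 5. Chchd10, Il1r2 and Bdh2 were not called by DESeq2.

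Markers of resident synovial macrophages were tested too, beside 2.3% called in either direction over all genes tested. With no adjustment, 3 of 8 interstitial and 4 of 6 lining genes had an edgeR p under 0.05, and DESeq2 called 0 and 1. Of the 8 interstitial macrophage genes, 1 passed. It was the eosinophil attractant Ccl24, at 794, 930 and 161 CPM in members against 541, 341 and 163 (log2 0.79 ± 0.17, adjusted p = 0.0055; 0.35 and adjusted p = 0.56 without day 2). Mrc1, the mannose receptor, stood at 911, 934 and 560 CPM against 798, 690 and 400 (log2 0.42 ± 0.12, adjusted p = 0.058), and Lyve1, a hyaluronan receptor, at 1240, 1114 and 324 CPM against 1567, 1368 and 488 (log2 -0.35 ± 0.12, adjusted p = 0.16). Of 6 lining macrophage genes tested, Fcrls was higher (log2 0.79) and Vsig4, a complement receptor, lower (log2 -0.64). Fcrls lost its call without day 2 (log2 0.45) and Vsig4 without day 1 (log2 -0.56). Reporter RNA, TdTomato, stood at 274, 524 and 254 CPM in members against 269, 391 and 158 (log2 0.42 ± 0.13, adjusted p = 0.11). It was found in 29.9%, 46.4% and 28.6% of members and in 29.3%, 38.3% and 26.3% of comparison barcodes. The background of TdTomato UMIs is unknown, and a share of cells with reporter RNA is not a share of labelled cells.

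The levels were then followed over the whole range of the sum, in barcodes with 0, 1 to 3, 4 to 7, 8 to 15 and at least 16 UMIs of the 3 chemokines. At day 2 these bins held 896, 448, 98, 94 and 87 barcodes with median depths of 3447 to 3830 UMIs. Egr1 stood at 123, 237, 445, 542 and 818 CPM over them, and Ccl12 at 16.4, 35.5, 93.6, 181 and 608 CPM. Tnf stood at 33.3, 61.4, 174, 162 and 231 CPM. At day 5 Cxcl2 stood at 937, 1814, 3307, 5267 and 7772 CPM. Egr1, Ccl12 and Cxcl2 were thus higher in each bin than in the one before it on these days, from sums below 8 onward, while Tnf was lower at a sum of 8 to 15 than at 4 to 7. Egr1 had this order on all 3 days, whereas Ccl12 at day 1 and Cxcl2 at days 1 and 2 did not. Ctsk at day 5 stood at 1137, 779, 66.4, 76.3 and 70.7 CPM, with its largest step between a sum of 1 to 3 and a sum of 4 to 7, below the threshold. H2-Ab1 at day 2 was not ordered, at 3824, 2910, 3082, 1489 and 3335 CPM.

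**Figure D4:**
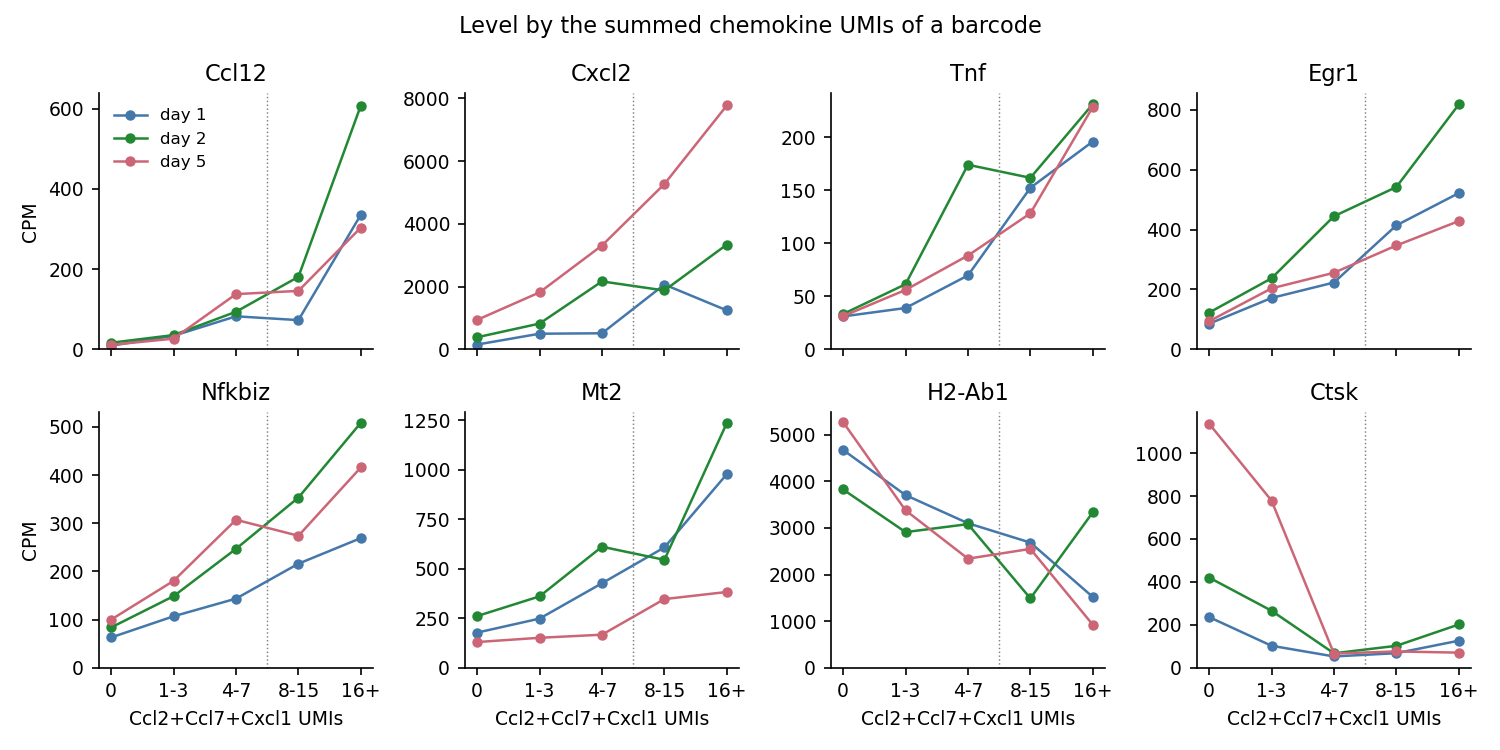
Summed CPM of 8 genes by the Ccl2, Ccl7 and Cxcl1 UMIs of a barcode, in 5 bins on the horizontal axis, 1 line per day; the dotted line marks the sum of 8. Egr1 is higher in each bin to the right on the 3 days, Ctsk of day 5 is low from a sum of 4 to 7 onward, and H2-Ab1 of day 2 has no steady order.

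A split at the same sum was made in barcodes with more than 1 Sparc UMI, which the rule leaves out. No limit was set on Plac8 there, unlike in members and comparison barcodes. There, 29 of 1401 (2.07%), 62 of 1065 (5.82%) and 25 of 749 (3.34%) reached a sum of 8 at days 1, 2 and 5. With the same edgeR fit, 116 of 9218 genes (1.26%) were higher in the barcodes with a high sum. Of the 169 genes higher in Ccl2/Ccl7-high cells that could be tested there, 80 were higher there too, and they stand among the 116 genes called. None of these counts leaves out Mt2, Egr1 or the genes of the rule, which the split on their sum makes high. Ccl12 had a log2 fold change of 3.80 ± 0.33, Tnf 1.94 ± 0.18 and Cxcl2 2.22 ± 0.13 in them. Ccl17 had the opposite sign, at 3.25 ± 0.35 (adjusted p = 2.1e-09) in Sparc-positive barcodes and -4.24 in members. Its levels there were 34.8, 5.03 and 935 CPM in barcodes with a high sum against 2.67, 13.9 and 52.0, so day 2 ran the other way. Ctsk had the same sign, at -2.05 ± 0.41. The difference between the fits was not tested. Barcodes with more than 1 Plac8 UMI reached the sum in 6 of 43, 4 of 37 and 65 of 626 (10.4%) at days 1, 2 and 5.

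Members of different days were compared without a test. Only ratios of at least 2 with at least 50 CPM on 1 side were counted. Between days 2 and 1, 19 of 2745 genes were higher (0.692%) and 17 lower (0.619%) at day 2. Between days 5 and 1, 137 of 2870 were higher (4.77%) and 116 lower (4.04%) at day 5. Between days 5 and 2, 170 of 2859 were higher (5.95%) and 140 lower (4.90%). The day 5 library enters both of the last comparisons. Members of days 1 and 2 thus had fewer genes past 2-fold between them than either had with day 5.

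At day 2 against day 1, Cd83, an activation marker of antigen-presenting cells, stood at 865 against 347 CPM in members, a ratio of 2.49 (counting interval 2.15 to 2.89), and its ratio in comparison barcodes was 1.42. At day 5 against day 1, members were higher in genes that the comparison barcodes of day 5 also held at higher levels. Thbs1, the matrix protein thrombospondin-1, stood at 293 CPM at day 5 and had no UMI in members of day 1, which makes it at least 72.4-fold higher against a floor of 3 UMIs in the day 1 sum. Its ratio in comparison barcodes was 110. Slc7a11, the cystine transporter, stood at 210 against 1.35 CPM, and Slpi, a protease inhibitor, at 148 against 1.35 CPM, each on 1 UMI at day 1. Their ratios were 155 (27.3 to 6194) and 109 (19.0 to 4369) in members and 43.2 and 22.2 in comparison barcodes. Ifitm1, an interferon-induced membrane protein gene, stood at 189 against 1.35 CPM, also on 1 UMI at day 1, with a ratio of 140 (24.6 to 5586) in members and 238 in comparison barcodes. Cxcl3 and Hp, the gene of haptoglobin, had no UMI in members of day 1 and were at least 32.2-fold and 16.3-fold higher at day 5.

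Retnla, a secreted product of alternatively activated macrophages, was lower at day 5. It stood at 3858, 1908 and 291 CPM in members at days 1, 2 and 5, and at 2343, 1338 and 1278 CPM in comparison barcodes. The day 5 members were 13.2-fold (11.3 to 15.7) lower than those of day 1, and the comparison barcodes 1.83-fold lower. Within days, the ratio of members to comparison barcodes was 1.65 (interval 1.58 to 1.71), 1.43 (1.35 to 1.51) and 0.23 (0.19 to 0.27). Members were thus above the comparison barcodes at days 1 and 2 and below them at day 5, and the difference between days was not tested. Cd209b, Cd209f and Cd209g, lectin genes of resident macrophages, were 10.4-fold, 7.10-fold and 6.04-fold lower in members of day 5 than in those of day 1, and 3.01-fold, 5.87-fold and 4.49-fold lower in comparison barcodes. Cxcl13 was 9.38-fold lower against 3.06-fold in comparison barcodes. Mmp12, a macrophage elastase, was also among the lower genes by rule, but all 82 of its UMIs at day 1 were in 1 member.

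**Figure D5:**
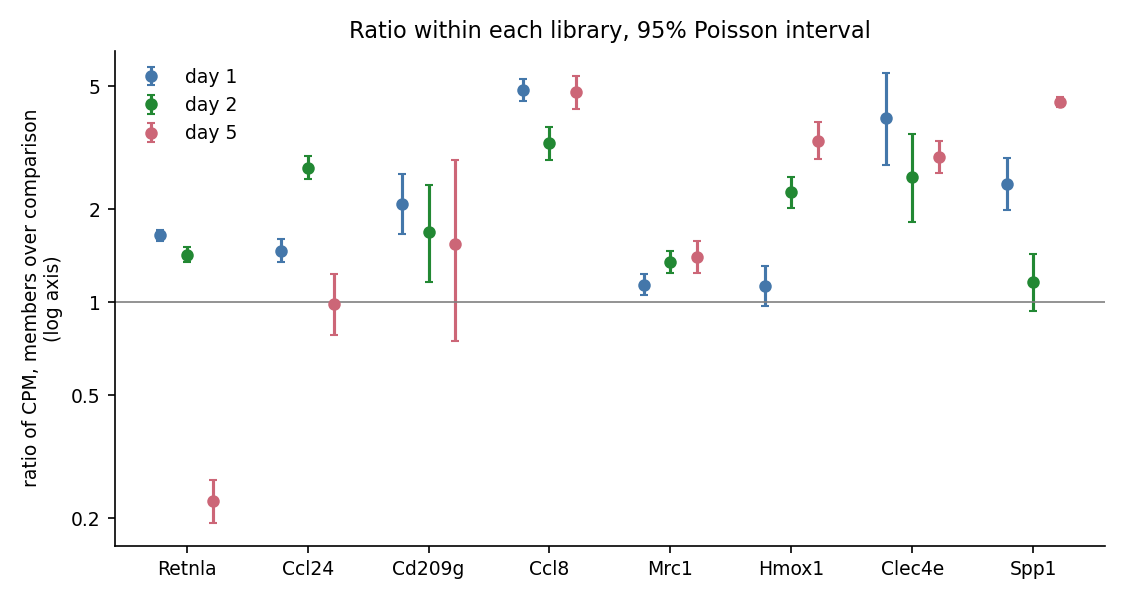
Ratio of the summed CPM of members to that of comparison barcodes for 8 genes on a log axis, with 95% Poisson intervals for counting error, 1 point per day. Ccl8 lies above 1 on each day, Retnla lies above 1 at days 1 and 2 and at 0.23 at day 5, and Spp1 is farthest from 1 at day 5.

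Spp1, osteopontin, a secreted protein of wound and tumour macrophages, stood at 167, 137 and 6219 CPM in members at days 1, 2 and 5 against 69.1, 118 and 1398 in comparison barcodes (log2 fold change 1.39 ± 0.21, adjusted p = 5.6e-05 over the 3 days). A Spp1 UMI was found in 51.3% of members of day 5 and 36.7% of comparison barcodes, with a median of 1 UMI and a highest value of 347 in members. The highest comparison value was 477.

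The members of day 5 were not alike. Divided by C1qa, a split chosen after the values were seen and described with no test, 34 members had no C1qa UMI and 85 had at least 1, at median depths of 3557 and 4290 UMIs. Ccl7 stood at 1827 CPM in the first and 1894 CPM in the second, and Ccl2 at 3066 and 2158 CPM. Both kinds of cell thus carried Ccl2 and Ccl7. The other chemokines separated them. Cxcl1 stood at 1278 CPM without C1qa and 287 CPM with it, and Cxcl2 at 14430 and 3852 CPM. Ccl8 stood at 15.7 and 862 CPM, on 2 and 346 UMIs, and Ccl12 at 31.4 and 277 CPM. Outside the rule, Cxcl2 was thus higher where C1qa was not found, and the CC chemokines Ccl8 and Ccl12 where it was.

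Cells without C1qa also held more Spp1 (19151 against 2105 CPM, 9.10-fold, interval 8.41 to 9.85), Il1b (3560 against 1106 CPM), Clec4e (1749 against 257 CPM), F10 (525 against 72.3 CPM) and Hmox1 (1004 against 326 CPM). For Hmox1, with 128 and 131 UMIs on the 2 sides, 1 member held 75 of the 259 UMIs of day 5. Monocyte genes lay on the same side, with Chil3 at 243 against 29.9 CPM and Ly6c2 at 133 against 42.4 CPM. S100a8, a neutrophil and monocyte gene, stood at 118 against 19.9 CPM, while Csf3r, the neutrophil growth factor receptor, had 1 UMI on each side. Cells with C1qa held more Mt2 (471 against 23.5 CPM, on 189 and 3 UMIs), Mrc1 (678 against 188 CPM), Retnla (369 against 47.1 CPM), Csf1r (603 against 149 CPM) and TdTomato (324 against 31.4 CPM). Egr1 stood at 449 CPM with C1qa and 180 CPM without. The 2 marker genes that came with the name, Mt2 and Egr1, thus belonged more to the cells with C1qa.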

How the data were processed

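The authors deposited 1 matrix of UMI counts per library, genes by cell barcodes, from 10x 3' v2 libraries. Cell Ranger 2.1.0, R 3.5.2, Seurat 2.3 and the mm10 build are named per the submitters' processing notes, with no role stated. A gene is listed in a matrix if at least 5 barcodes hold it. A gene that is not listed has no value, and only the 11736 genes listed in all 3 libraries were used.

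Barcodes were taken as cells, with no step for doublets. An alternative left out the 5% of barcodes with most UMIs. Counts were summed over members and over comparison barcodes of each library. They were fitted with edgeR 4.0.16 (R 4.3.3; TMM scaling, filterByExpr, quasi-likelihood test, library as block, Benjamini-Hochberg adjustment over 10029 genes, threshold 0.05). DESeq2 1.42.0 was an alternative. Code was tested on simulated data. Ratios within and between days have exact conditional Poisson intervals and shares have Clopper-Pearson intervals, both at 95%, for counting error only. Fewer cells of a kind and less RNA per cell cannot be told apart in a sum, and the effect of a day cannot be told apart from that of its library. Chemokine genes have similar copies, and the counting of reads shared by such copies is not stated. Other steps used Python 3.11.15, NumPy 2.4.6, pandas 2.3.3, SciPy 1.17.1 and matplotlib 3.10.9.

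Genes were named by a rule. Among called genes with the same direction in 3 libraries and at least 50 CPM in 1 sum, it took the 15 higher (Egr1 among them) and 10 lower with the largest log2 fold change. It added up to 4 genes per list with at least 20 CPM, and the 6 higher and 6 lower by ratio at day 5 and at day 2 against day 1 whose interval lay beyond 2-fold. Mitochondrial, ribosomal, haemoglobin, sex-linked and predicted genes were left out. Other genes, and the split by C1qa, were chosen after their values were seen. One result that met the rule for a closer look is not reported here. The members and lists were chosen with earlier results of these data known.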

Additional observations from a re-analysis of the deposited data

Results flagged for a closer look

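For 5 genes reported here the ratio of members to comparison barcodes lay on opposite sides of 1 on different days, with counting intervals that excluded 1 on both sides. With 1 library per day, no difference between days was tested. Retnla had a ratio of 1.65 at day 1 and 1.43 at day 2, against 0.23 at day 5. Mmp12 had a ratio of 10.2 at day 1 and 4.63 at day 2, against 0 at day 5, where members held no UMI, and 1 member held all of its UMIs at day 1 and 63.4% at day 2. Dnajb1, a heat shock co-chaperone, had a ratio of 1.63 at day 2 against 0.59 at day 5. Fcgr3, an activating Fc gamma receptor, had a ratio of 1.21 at day 5 against 0.90 at day 1. Arg1, arginase 1, had a ratio of 1.74 at day 5 against 0 at day 2, where members held no UMI.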

How the results depend on the processing

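The fit pairs the members and comparison barcodes of each library through the library block, and without that block 14 genes were higher and 2 lower. Against 176 higher and 55 lower genes, DESeq2 called 105 and 22, leaving out 1 library at a time gave 144 to 201 higher and 49 to 69 lower, a rule of at least 20 chemokine UMIs per 10000 gave 90 lower, and no filter on low counts gave 89 lower. Leaving out, for each gene, the barcode with most of its UMIs, an alternative chosen after seeing the data, gave 204 and 57 of 9702, of which 157 and 45 were among the first calls; Cxcl10 kept a log2 fold change of 2.55. A sum of at least 5 gave shares of 8.97%, 15.4% and 9.46% at days 1, 2 and 5, a sum of at least 12 gave 3.28%, 7.27% and 4.06%, the per-10000 rule gave 6.69% at day 1 and thinning 6.89% at day 1. Between days, at least 2-fold, a sum of at least 5 gave 11 lower at day 2 against day 1 and 85 lower at day 5 against day 2. A sum of at least 12 gave 36 higher and 38 lower at day 2 against day 1, 211 and 224 at day 5 against day 1, and 216 lower at day 5 against day 2. The per-10000 rule gave 176 lower at day 5 against day 1, and mean CPM per cell gave 34 higher at day 2 against day 1. With a minimum of 20 CPM the counts were 114 and 189 at day 2 against day 1, 348 and 429 at day 5 against day 1, and 424 and 428 at day 5 against day 2. Signs turned for Ccnb1 (-2.51), Mki67 (-0.11), Ccnb2 (-1.95) and Birc5 (0.36 at day 2 against day 1) with the per-10000 rule, for Atp6v0d2 (0.17) without the barcodes of most UMIs and for Cxcl3, which ranged from -0.27 to 2.76 over the fits that left out 1 library, all on the log2 scale. The log2 ratio within members also turned for Ccl5 (-1.70) with a sum of at least 12 and for Mmp12 (0.33 with that sum, 0.58 per 10000). The causes were not tested. Over the named genes, 1789 alternative values kept direction and side of the threshold, 142 lost the call, 57 gained it and 5 turned.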

Other observations

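In the library of day 0, which the rule does not use, 75 of 2770 barcodes within the Sparc and Plac8 limits had a sum of at least 8. Their median depth was 1298 UMIs, under that of the members of the other days, and no comparison was made with them.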
